A study of Mus musculus with 2 samples.

Results

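The Wnt pathway genes described here are the Wnt ligands, their Frizzled and Lrp receptors, the secreted inhibitors of the Dkk and Sfrp families, and the intracellular effectors up to the TCF/LEF factors. Members were taken by gene symbol: every symbol beginning with Wnt, Fzd, Dkk or Sfrp and a digit, and 17 further named genes. Of the 19938 genes measured by a probeset assigned to that gene alone, 54 were members, 38 of them by symbol stem and 16 of the 17 by name. Tcf7 was not analysed here. The stem rule also took in Fzd10os, a noncoding RNA from the opposite strand at Fzd10, which is given apart. Wnt4 had 2 probesets, whose values were averaged, and the other 53 members had 1 each.

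The cells were i-OSKM-ESC, mouse embryonic stem cells of strain 129 derived from KH2, a line built for doxycycline-driven transgenes. In these cells doxycycline switches on transgenes for Oct4, Klf4, c-Myc and a Sox2 that carries an epitope tag, and both groups held these transgenes. The group called plus doxycycline received 4 µg/mL of the drug for 24 hours, and the group called no doxycycline received fresh medium without it; both had been replated on gelatin beforehand. Each group was measured on 1 whole-transcript oligonucleotide array, so none of the differences below could be tested or given an error between cultures, and the drug's own effect and that of the 4 factors cannot be told apart.

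Wnt proteins are secreted lipid-modified signals. When a Wnt binds a Frizzled receptor and the coreceptor Lrp5 or Lrp6, a cytoplasmic destruction complex of Axin, Apc and Gsk3 is inhibited, β-catenin accumulates, and TCF/LEF factors switch from repressing to activating their targets. In mouse embryonic stem cells this pathway supports self-renewal, largely by relieving repression of pluripotency genes by Tcf7l1. Several targets, among them Axin2, Dkk1, Rnf43 and Znrf3, restrain the pathway and form its negative feedback.

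Promoter sequence is shown for 4 members described below: Dkkl1, which differed most, and Fzd7, Dkk1 and Axin2, which were at a lower level after doxycycline. Each line gives the 250 bases before the RefSeq start site in assembly GRCm38.p6, in the direction of the gene, with words of the TCF/LEF motif in capitals. The windows are chr7:45211884-45212133 on the minus strand for Dkkl1, chr1:59481897-59482146 on the plus strand for Fzd7, chr19:30549497-30549746 on the minus strand for Dkk1 and chr11:108920099-108920348 on the plus strand for Axin2.
Dkkl1: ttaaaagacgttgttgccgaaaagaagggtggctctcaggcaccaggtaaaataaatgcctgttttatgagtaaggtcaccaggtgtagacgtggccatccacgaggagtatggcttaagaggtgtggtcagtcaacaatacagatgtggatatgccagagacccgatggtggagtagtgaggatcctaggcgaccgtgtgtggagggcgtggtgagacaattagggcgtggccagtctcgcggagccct
Fzd7: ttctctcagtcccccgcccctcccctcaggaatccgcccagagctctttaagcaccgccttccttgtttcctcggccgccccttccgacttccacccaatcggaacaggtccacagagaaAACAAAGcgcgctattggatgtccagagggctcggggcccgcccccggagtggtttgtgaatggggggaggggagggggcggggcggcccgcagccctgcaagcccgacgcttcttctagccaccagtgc
Dkk1: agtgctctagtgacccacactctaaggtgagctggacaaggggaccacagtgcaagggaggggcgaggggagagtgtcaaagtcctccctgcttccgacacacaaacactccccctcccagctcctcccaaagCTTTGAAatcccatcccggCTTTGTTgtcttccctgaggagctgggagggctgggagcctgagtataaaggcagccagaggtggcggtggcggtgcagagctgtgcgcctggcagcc
Axin2: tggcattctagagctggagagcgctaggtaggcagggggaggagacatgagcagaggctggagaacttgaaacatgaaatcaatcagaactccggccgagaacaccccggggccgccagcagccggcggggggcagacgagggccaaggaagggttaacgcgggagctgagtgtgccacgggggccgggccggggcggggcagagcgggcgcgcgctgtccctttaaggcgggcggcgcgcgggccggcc
The TCF/LEF words searched on both strands begin with CTTTG and end in AA, AT, TA or TT. The Dkk1 window holds 2 of them, at bases 117 to 111 and 98 to 92 before the start, and the Fzd7 window holds 1 at bases 130 to 124, read on the opposite strand. The Dkkl1 and Axin2 windows hold none. The 3 matches do not overlap one another. Such a word occurs in 14.8% of the 32851 upstream windows of this length in the table, and in 6 of the 43 windows that matched 34 members. The words ATTTGCAT (octamer, bound by Oct4), CATTGT (Sox), CACGTG (E-box, bound by Myc) and CCACACCC (Klf), also searched on both strands, occur in 1.60%, 10.7%, 6.02% and 3.20% of all windows. They occur in 2, 4, 3 and 1 of the 43 member windows, and in none of the 4 printed windows. Members other than these 34 matched no window. Member windows were rich in G and C, with a median of 66.4% against 52.4% over all windows; the Dkkl1 window had 52.4% and the Axin2 window 69.2%. A match is a string of letters in the window and no evidence of binding.

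Values are log2 signals from the RMA procedure, in which a difference of 1 is 2-fold. The expression filter was 6.48, the median over the table, and a gene passed if it reached this on at least 1 array. A gene that passed and differed at least 2-fold was called. Of the 54 members, 33 passed: 29 reached the filter on both arrays, 3 only with doxycycline and 1 only without it. Among these 33, 2 members were called higher after doxycycline, Dkkl1 and Sfrp1. Over all 11191 genes that passed, 0.92% were called higher and 1.69% in either direction. No member was called lower (0 of 33, against 0.768% of all genes), although Sfrp4 and Fzd7 were both 1.76-fold lower. At 1.5-fold, the members past the threshold were the same 2 in the higher direction (background 3.24%) and these 2 in the lower direction (background 3.8%). The median log2 difference was 0.06 over all 54 members and -0.04 over the 33 that passed, against 0.01 over all genes and -0.03 over all genes that passed. After removal of a loess trend or quantile normalization the median of the 33 was 0.01, so its sign depended on the scaling. As a group the pathway genes therefore lay near the centre of all genes. The members that passed and differed at least 1.5-fold were Dkkl1, Sfrp1, Sfrp4 and Fzd7.

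**Figure D1:**
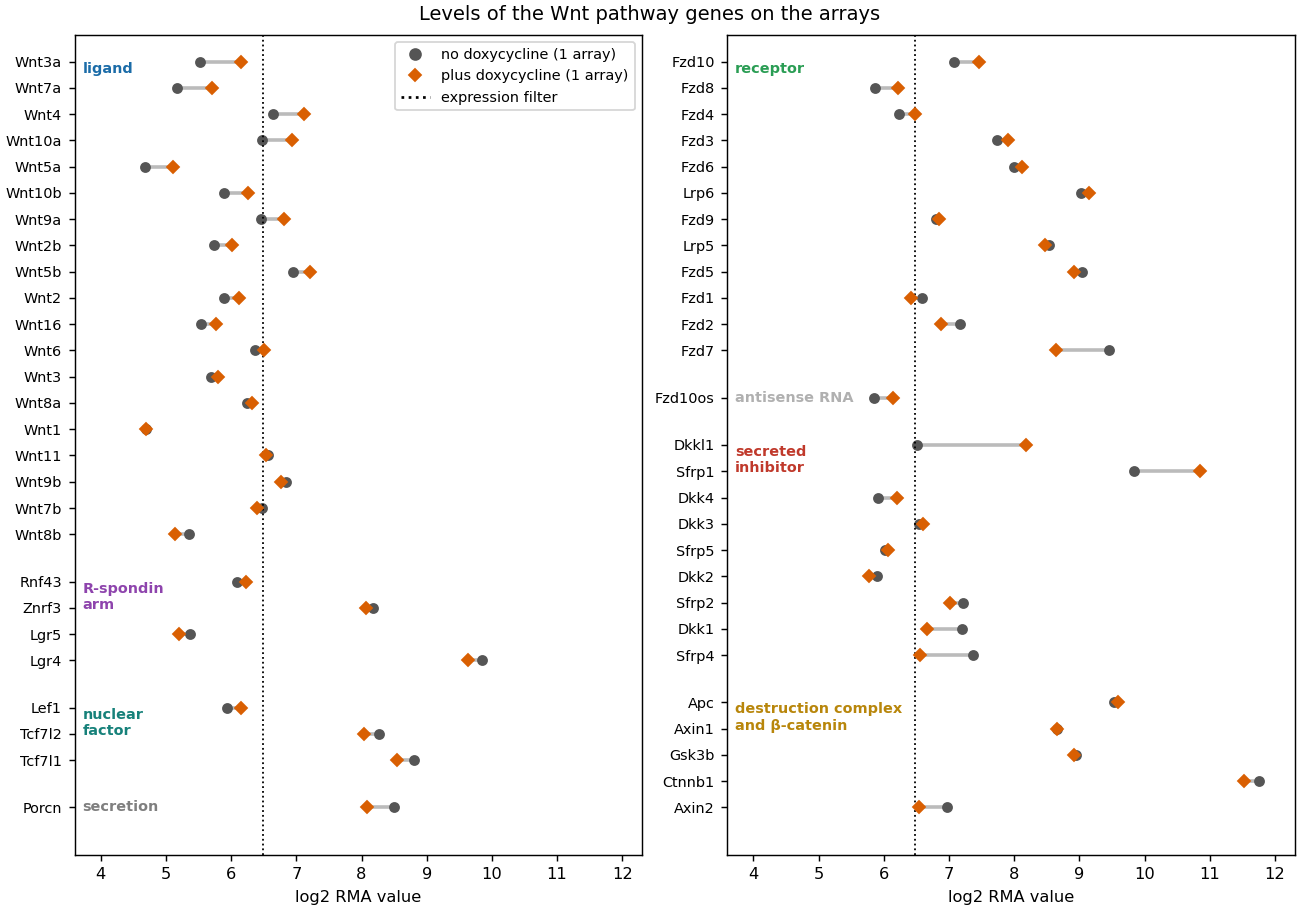
Log2 RMA value of each of the 54 members on the array without doxycycline (grey circles) and with doxycycline (orange diamonds), sorted within each role by the difference; the dotted line is the expression filter at 6.48. The long bars to the right are Dkkl1 (6.51 to 8.18) and Sfrp1 (9.84 to 10.85), and the long bars to the left are Fzd7 (9.45 to 8.63) and Sfrp4 (7.37 to 6.55).

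The genes grouped as secreted inhibitors were placed there by a Dkk or Sfrp symbol. Whether each inhibits Wnt signalling was not tested. As a group they differed most, and in both directions. Dkkl1, placed in this group by its symbol, encodes a secreted glycoprotein related to Dkk3 and is known from developing sperm cells and from trophoblast. Its log2 value was 8.18 with doxycycline and 6.51 without, 3.18-fold higher. That was the largest rise among the 997 genes of like mean level, in which 95% of the differences lay between -0.69 and 0.64. Among all 11191 genes that passed it ranked 12 from the highest rise. When 32 was added to the linear signals its log2 difference went from 1.67 to 1.39, still past 2-fold. Sfrp1, a secreted decoy that carries a Frizzled-type cysteine-rich domain and binds Wnt proteins, was at 10.85 with doxycycline and 9.84 without, 2.03-fold higher. It stood at percentile 99.7 of the differences of its 997 neighbours in level, whose middle 95% ran from -0.57 to 0.50. Sfrp1 lay at the threshold: with the same offset of 32 its log2 difference was 0.99, just under 2-fold.

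The other 7 genes of this group had no common direction: 3 differences were positive and 4 negative. None of them was called, against 1.69% of all genes that passed the filter. Sfrp4 was at 6.55 with doxycycline and 7.37 without, 1.76-fold lower, at percentile 1.30 among genes of like level. With the offset of 32 its log2 difference shrank from -0.82 to -0.65. Sfrp2 was at 7.01 and 7.21, a log2 difference of -0.20, and Sfrp5 lay below the filter at 6.07 and 6.02. The 4 Sfrp genes thus spanned log2 differences from -0.82 to 1.02. Dkk1, which blocks the Lrp5 and Lrp6 coreceptors, was at 6.66 with doxycycline and 7.20 without, 1.46-fold lower and at percentile 3.71. Dkk3, a divergent family member, was at 6.61 and 6.54, a log2 difference of 0.07. Dkk2 (5.77 and 5.89) and Dkk4 (6.20 and 5.91) lay below the filter, with log2 differences of -0.12 and 0.29. Dkk1 was the only 1 of the 4 Dkk genes to differ by over 0.5.

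Markers of other cell types were read beside these values, since the inhibitors are also made by mesenchymal and extraembryonic cells. All 8 fibroblast and feeder markers were measured, and 7 had positive log2 differences, from -0.07 (Col3a1) to 0.50 (Col1a2), with 0 called. Of all genes that passed the filter, 1.69% were called. The median log2 difference of the 8 markers was 0.26, against 0.01 over all genes, of which 51.6% had positive differences. Of the 8, 7 lay above the median of genes of like level. After a loess trend was removed, the median of the 8 was 0.25, against 0.00 over all genes. Their median level was 6.33 without doxycycline and 6.39 with it. Of the 4 that passed, Col1a1 was at 7.16 without doxycycline and 7.61 with it, and Col1a2 at 6.66 and 7.16. Thy1 was at 7.22 and 7.49, and Col3a1 at 6.56 and 6.49. Below the filter, Lum stood at 3.38 and 3.63, Postn at 4.55 and 4.80, Dcn at 4.54 and 4.81, and Twist2 at 6.10 and 6.28. The scale began at 2.49. Of 6 trophectoderm markers only 2 passed the filter, so the others could not be called, and 0 were called. The log2 differences of the 6 ran from -0.40 to 0.30. Cdx2, at 5.22 without doxycycline and 5.14 with it, and Elf5, at 5.51 and 5.58, lay below the filter. All 6 primitive endoderm markers passed, 0 were called and 4 had negative differences, with a median of -0.18. Of 5 neuroectoderm markers 2 passed the filter. The neuronal tubulin gene Tubb3 was called, 2.41-fold higher (8.94 and 7.67), and the other 4 markers lay between -0.13 and 0.24. The 5 primitive streak and mesoderm markers ran from -0.11 to 0.15. The part of such cells in the values of Sfrp1, Sfrp4 and Dkkl1 was not tested. In bulk RNA, fewer cells of a type and less RNA per cell cannot be told apart.

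**Figure D2:**
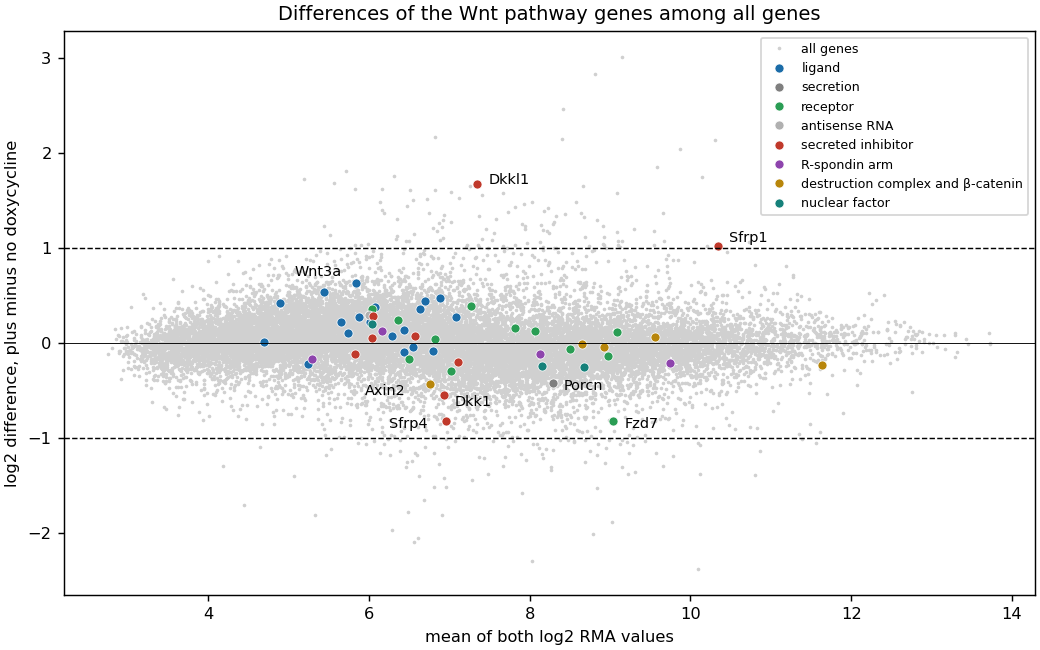
Log2 difference (plus minus no doxycycline) against the mean of both log2 values for all 19938 genes (light grey) and for the 54 members, coloured by role; dashed lines mark 2-fold. Dkkl1 (1.67) and Sfrp1 (1.02) lie above the upper line, and Sfrp4 and Fzd7 (both -0.82) lie at the lower edge of the cloud inside the lower line.

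Among the receptors, Fzd7 stood out at the lower end. It is the Frizzled best known for Wnt signalling in pluripotent cells. Its log2 value was 8.63 with doxycycline and 9.45 without, 1.76-fold lower, at percentile 1.5 among 997 genes of like level. The middle 95% of those genes had differences from -0.63 to 0.57. Its closest relatives, Fzd1 and Fzd2, were also lower, by less: Fzd1 was at 6.42 and 6.58, and Fzd2 at 6.87 and 7.16, a log2 difference of -0.29. How far probes of these related genes read one another's transcripts was not tested.

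The remaining Frizzled genes stayed within 1.5-fold. Fzd10, at 7.46 with doxycycline and 7.07 without, was 1.31-fold higher, and Fzd10os, from the opposite strand, was below the filter at 6.15 and 5.85. Fzd5 was at 8.91 and 9.04, Fzd3 at 7.90 and 7.74, and Fzd9 at 6.84 and 6.79. Fzd6, at 8.12 with doxycycline, had a log2 difference of 0.13. Fzd4 (6.48 and 6.23) and Fzd8 (6.22 and 5.86) lay below the filter. Over the 10 Frizzled genes, 6 differences were positive and 4 negative, with a median of 0.09, so the family had no common direction. The coreceptors hardly differed: Lrp5 was at 8.47 and 8.54, and Lrp6 at 9.15 and 9.03. The sign for Lrp5 was not stable, at -0.07 as deposited and 0.01 after loess or quantile normalization.

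The ligands were dim, and of the 7 that passed the filter 0 were called, against 1.69% of all genes that passed. A count of 0 among so few genes lies near that share. Of the 19 Wnt genes, 12 lay below the filter on both arrays; no detection call was used, so how far these levels stand above background was not measured. Of the 7 that passed, Wnt4 differed most, at 7.12 with doxycycline and 6.64 without, 1.39-fold higher. Its 2 probesets had log2 differences of 0.58 and 0.37. Wnt10a was at 6.93 and 6.48, Wnt9a at 6.81 and 6.45, and Wnt6 at 6.50 and 6.37; all 3 reached the filter only with doxycycline. Wnt5b, a ligand of the β-catenin-independent branch, was at 7.21 and 6.95. Wnt11, another such ligand, was at 6.54 and 6.57, and Wnt9b at 6.76 and 6.84. These 7 values amount to small differences, from -0.08 to 0.48.

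Below the filter, Wnt3a and Wnt7a differed by more than 0.5. Wnt3a, the ligand often added to stem cell cultures, was at 6.16 with doxycycline and 5.53 without, a log2 difference of 0.63 that fell to 0.40 with the offset of 32. Wnt7a was at 5.70 and 5.17, a log2 difference of 0.54 that fell to 0.31. The other 10 ligands below the filter ran from -0.22 (Wnt8b) to 0.42 (Wnt5a). Over all 19 ligands, 15 differences were positive and the median was 0.22. Dim genes as a whole leaned the same way: of the 8213 genes in the ligands' range of mean level 63.3% had positive differences, with a median of 0.08. Of the 19 ligands, 12 lay above the median of their own level bin. The count of positive ligand differences is to be read against that lean. After the loess trend was removed, 14 of the 19 ligand differences were positive. Their median was then 0.13, against 0.01 for the 8213 genes in the same range of level.

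Porcn, the membrane enzyme that attaches the lipid without which Wnt proteins are not secreted, was at 8.08 with doxycycline and 8.50 without. This is 1.34-fold lower, at percentile 9.83 among genes of like level.

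**Figure D3:**
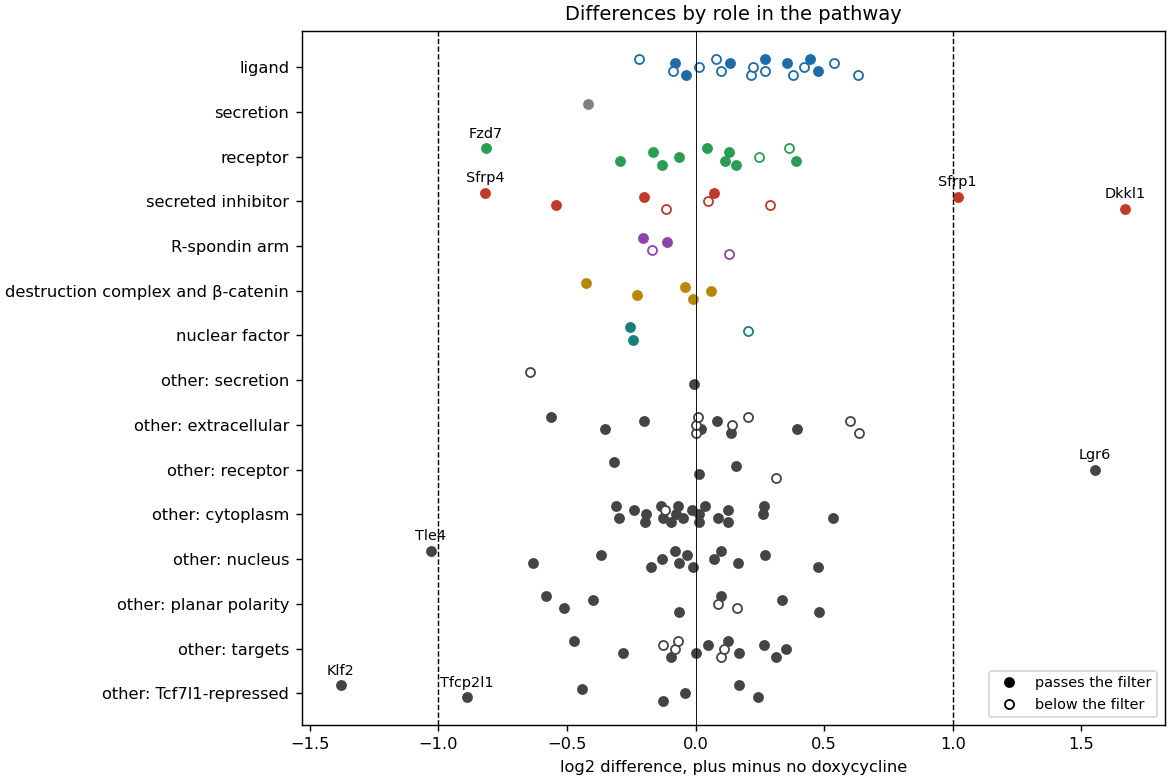
Log2 difference (plus minus no doxycycline) of each member by role, with the antisense RNA left out (coloured), and of other Wnt pathway genes and targets (dark grey); filled points pass the expression filter, open points do not, and dashed lines mark 2-fold. The secreted inhibitors, grouped by symbol, have the widest spread of the member groups, from -0.82 to 1.67 (Dkkl1). The destruction complex runs from -0.43 to 0.06.

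All 5 genes of the destruction complex and β-catenin passed the filter, and 0 were called, against 1.69% of all genes that passed. With so few genes this count lies near that share. Their differences ran from -0.43 to 0.06. Ctnnb1, which encodes β-catenin, was at 11.53 with doxycycline and 11.76 without, a log2 difference of -0.23 at percentile 10.4 among genes of like level. Of the scaffolds, Apc was at 9.59 and 9.53, and Axin1 at 8.65 and 8.66. The kinase gene Gsk3b was at 8.91 and 8.95. The differences of Axin1 and Gsk3b, at -0.01 and -0.04, became positive after loess or quantile normalization, so neither has a direction here. Axin2, the inducible Axin and a standard readout of β-catenin signalling, was at 6.54 with doxycycline and 6.97 without. It was 1.34-fold lower, at percentile 7.12 among genes of like level, within the middle 95% from -0.67 to 0.72.

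The receptor arm that senses R-spondins, which raise Wnt sensitivity by removing the ubiquitin ligases Rnf43 and Znrf3 from the membrane, showed little difference in its members. Lgr4 was at 9.64 with doxycycline and 9.85 without, and Znrf3 at 8.07 and 8.18. Lgr5 (5.20 and 5.37) and Rnf43 (6.22 and 6.09) lay below the filter.

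Of the nuclear factors, Tcf7l1, the repressor that opposes self-renewal in embryonic stem cells, was at 8.54 with doxycycline and 8.80 without. Tcf7l2 was at 8.03 and 8.28. Their log2 differences, -0.26 and -0.24, stood at percentiles 22.6 and 25.2 of genes of like level, well inside the spread. Lef1 lay below the filter at 6.15 and 5.94.

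The negative feedback genes among the members, Axin2, Dkk1, Znrf3 and Rnf43, had log2 differences of -0.43, -0.54, -0.11 and 0.13. Lef1 and Lgr5, known targets that promote signalling, had 0.20 and -0.17. Of the 6, Lgr5, Rnf43 and Lef1 were below the filter and could not be called. None of the others was called, against 1.69% of all genes that passed, and so few genes say little beside that share.

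The rest of the pathway was covered by a list of 66 measured regulators and 22 measured targets that are not members. Of the 54 regulators that passed the filter, 1 was called higher and 1 lower, against 0.92% and 0.768% of all genes. The higher gene was Lgr6, a receptor for R-spondins like Lgr4 and Lgr5, at 8.19 with doxycycline and 6.63 without, 2.94-fold. Lgr6 differed by 1.55 on the log2 scale, while Lgr4 and Lgr5 had -0.21 and -0.17. The lower gene was Tle4, a Groucho-type corepressor of TCF/LEF factors, at 8.91 and 9.94, 2.04-fold. It fell short of 2-fold after loess (-0.98), quantile normalization (-0.995) and with the offset (-0.98). Its relatives Tle1, Tle2 and Tle3 had 0.47, -0.06 and 0.10. The median over the 66 regulators was 0.00.

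Of the 17 targets that passed the filter, 0 were called higher and 1 lower, against 0.92% and 0.768% of all genes that passed. The lower gene was Klf2, at 6.79 with doxycycline and 8.17 without, 2.60-fold; it belongs to the pluripotency genes listed as repressed by Tcf7l1. In that group of 7, Tfcp2l1 was 1.85-fold lower (10.38 and 11.27), Esrrb had -0.44, Nanog -0.13 and Tbx3 -0.04, while Nr5a2 had 0.17 and Nr0b1 0.24. Of the 15 general targets, 10 passed the filter and 0 were called, against 1.69% of all genes that passed. Of their differences, 9 were positive and 6 negative, with a median of 0.05. They ran from -0.47 for Jun, an AP-1 subunit, to 0.35 for Myc, which is both a listed target and an induced transgene. Snai1 had 0.31, Tnfrsf19 -0.28 and the cyclin gene Ccnd1 -0.09.

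**Figure D4:**
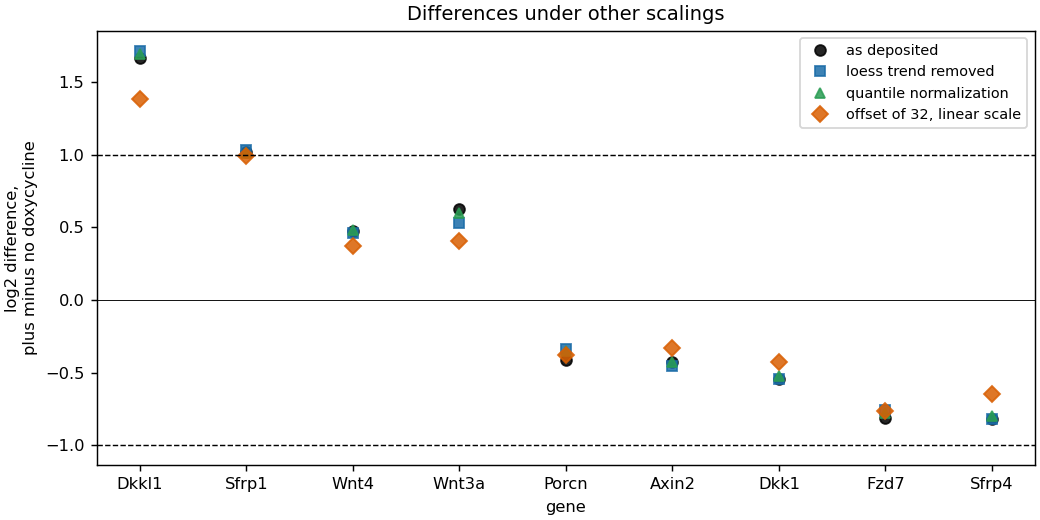
Log2 difference (plus minus no doxycycline) of 9 members as deposited and after a loess trend was removed, after quantile normalization, and with 32 added to the linear signals; dashed lines mark 2-fold. Each gene kept its direction under all 4, and Sfrp1 crossed the 2-fold line, from 1.02 as deposited to 0.99 with the offset.

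For the arrays as a whole, the deposited values began at 2.49 in both, and the 2 arrays correlated with a Pearson r of 0.989 across genes, which are not independent replicates. All 9 measured embryonic stem cell markers stood at 10.27 or above on both arrays. Of these, 7 had negative and 2 positive differences, with a median of -0.44. At least 1.5-fold lower were 3 of the 9, against 3.8% of all genes that passed. They were Sox2, Utf1 (10.87 with doxycycline and 11.83 without) and Tdgf1 (11.53 and 12.26), at percentiles 0.40, 0.50 and 1.30 of genes of like level. Of the induced factors, Sox2 was 2.01-fold lower with doxycycline (10.88 and 11.89), while Pou5f1, which encodes Oct4, Klf4 and Myc had log2 differences of 0.41, 0.43 and 0.35. The sources used here do not say whether these probesets read the transgenes, so the factors do not check the labels, and every direction above is that of the array labelled plus doxycycline against the array labelled no doxycycline.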

How the data were processed

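Total RNA (300 ng per sample) was converted to sense-strand cDNA, labelled with biotin and hybridised to 1 array per group, per the labels' protocols. The authors deposited 1 log2 value per probeset and array (35556 probesets), made with Affymetrix Expression Console and RMA per the submitters' processing notes; versions, build and annotation were not given in the sources used here. RMA includes a step that equalises arrays, which can hide a shift common to most transcripts (the deposited medians were 6.49 with doxycycline and 6.47 without), and it compresses the folds of dim transcripts; no detection call was used.

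Probesets were named from the platform annotation: 21789 had 1 gene, 1621 several and 12146 none listed, and only the first kind was used, averaged per gene. All 54 member symbols are in the RefSeq table of GRCm38.p6. The filter, the 2-fold rule and 20 bins of about 997 genes by mean level are as described above; percentiles rank a difference within its bin and are not p-values. The number of arrays limits the precision. As a guide to technical scatter, 477 genes with 2 probesets that passed gave a within-gene SD of 0.167 for the log2 difference; it is not an error between cultures.

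Every member is accounted for; the naming rule gave members below the filter singly from a log2 difference of 0.5 and other pathway genes from 0.8; further ones were named after their values were seen. The members, lists and rules were chosen with earlier results of these data known. The calling steps were run on simulated data with normally distributed noise and planted changes. That run checks the code only. It holds no variation between cultures and does not measure how reliable calls from 1 array per group are. Alternatives were other filters, loess, quantile normalization, an offset of 32, the brightest probeset, single probesets and a 1.5-fold threshold. The scripts used pandas 2.3.3 and NumPy 2.4.6 in Python 3.11.15, with statsmodels 0.14.6 for loess and matplotlib 3.10.9 for plots.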

Additional observations from a re-analysis of the deposited data

How the results depend on the processing

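The 2 members called higher stayed 2 under each alternative except the offset of 32 on the linear scale, which left 1, Dkkl1. No member was called lower under any filter, scaling or probeset rule, and 2 were (Fzd7 and Sfrp4) at 1.5-fold. Of the other pathway genes, Lgr6 was called higher under every alternative; the 2 called lower became 1 (Klf2) after loess, quantile normalization and the offset, and 4 at 1.5-fold (Hbp1, Klf2, Tfcp2l1 and Tle4). Those counts changed because Sfrp1 and Tle4 lie at the threshold or because the threshold was lowered. The median over members ran from -0.07 to 0.07 over the alternatives, and for the 33 members that passed it turned from -0.04 to 0.01 after loess or quantile normalization. With the offset, 5 members moved by more than the within-gene probeset SD of 0.167: Dkkl1 (1.67 to 1.39), Sfrp4, Wnt3a, Wnt5a (0.42 to 0.20) and Wnt7a. Of members that passed, Axin1, Gsk3b and Lrp5 changed sign under loess and quantile normalization; below the filter, Wnt1 did so under both and Sfrp5 under loess. The other scalings shifted the median of all genes by under 0.1. No paired analysis was possible because each group has 1 array, and for the same reason no replicate could be left out. Background was not measured, and the filter is no detection limit.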

Other observations

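For Dkkl1, Sfrp1, Sfrp4 and Fzd7, the neighbours in the RefSeq gene order were read after the members. A neighbour is here the nearest measured protein-coding gene on a side. Noncoding genes and genes not measured were skipped. Dkkl1 lies next to Tead2, a transcription factor of the Hippo pathway, which was at 9.89 with doxycycline and 9.76 without, a log2 difference of 0.13 beside 1.67 for Dkkl1; on its other side Kash5, below the filter, had 0.14. Sfrp1 lies between Golga7 (0.13) and Zmat4 (0.06, below the filter), and Sfrp4 between Epdr1 (-0.22) and Nme8 (0.15, below the filter). The neighbours of Fzd7, Cdk15 (-0.09) and Gm973 (0.11), were both below the filter. None of these 8 neighbours differed by as much as 1.5-fold.

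Among the Wnt ligand genes, 4 pairs are adjacent in the RefSeq order of all protein-coding genes, measured or not. Wnt3a and Wnt9a had log2 differences of 0.63 and 0.36, Wnt6 and Wnt10a 0.13 and 0.45, Wnt10b and Wnt1 0.38 and 0.01, and Wnt9b and Wnt3 -0.08 and 0.10.

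Below the filter, the pathway list also held differences beyond 0.5 for Wls, the carrier that brings Wnt proteins to the cell surface (5.52 with doxycycline and 6.17 without), and for the secreted inhibitor genes Wif1 (5.78 and 5.14) and Cer1 (5.51 and 4.91). With 32 added to the linear signals, the log2 differences shrank from -0.64 to -0.41 for Wls, from 0.64 to 0.37 for Wif1 and from 0.60 to 0.32 for Cer1. Besides Lgr6 and Tle4, some regulators that passed the filter also differed by more than 0.5. They were Hbp1 (-0.63), Celsr3 (-0.58), Gpc4 (-0.56), Vangl2 (-0.51) and Nkd2 (0.54).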
